A study of Homo sapiens with 6 samples.

Results

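A set of 8 genes of the caspase and inhibitor-of-apoptosis machinery was followed in mitotic cells with and without oncogenic Ras: the caspases CASP2, CASP4, CASP8 and CASP9, the caspase-9 activator APAF1, and the inhibitors BIRC2 (cIAP1), BIRC3 (cIAP2) and XIAP. They were taken by symbol, each of which had 1 row, and they are 8 of the 63009 genes listed with 1 value per library. Expression was measured by poly(A) RNA-seq in 6 libraries of ERRAS cells, which are IMR90 human lung fibroblasts stably carrying H-RasV12 fused to the ligand-binding domain of the estrogen receptor. Both groups carried this construct, were selected with G418, were arrested in mitosis with 1 µM DME (dimethylenastron, an inhibitor of the spindle motor Eg5) and were collected as detached cells, of which the labels give over 90% as mitotic. The 3 control libraries came from uninduced cells and the 3 Ras-induced libraries from cells given 100 nM tamoxifen, per the labels, for 4 days before collection. The study's methods state the dose differently, by mass per volume, and the amount used was not settled here. The transgene is driven from a retroviral vector in a selected cell population, and no group here received tamoxifen without the construct, so effects of the ligand and of Ras cannot be told apart here. The comparison bears on how mitotic cells with activated Ras survive the arrest that precedes multinucleation.

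Caspases are proteases that are made as inactive precursors. Initiator caspases are switched on when they are brought together in large complexes, caspase-8 at death receptors, caspase-9 on the APAF1 apoptosome that forms once cytochrome c has left the mitochondria, and caspase-2 on the PIDDosome, and they then start the proteolysis that dismantles the cell. Caspase-4 belongs to an inflammatory branch that senses bacterial lipopolysaccharide and cleaves gasdermin D. The inhibitor-of-apoptosis proteins share the BIR domain: XIAP binds and blocks caspases directly, whereas cIAP1 and cIAP2 are ubiquitin ligases that act on RIPK1 at the TNF receptor and hold the non-canonical NF-kappaB kinase NIK in check. In cells held in mitosis, the balance between these proteins and the BCL-2 family is known to bear on whether a cell dies or slips out of arrest.

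The stretches of genome just before 4 of these genes are shown because BIRC2 and BIRC3 are near neighbours with unlike values, and because CASP4 and CASP9 were the 2 members that were higher in Ras-induced cells. Each line gives the 250 bases before the most upstream RefSeq start (GRCh38.p14), 5′ to 3′ on the gene's own strand. These are chr11:102317234-102317483 (plus strand) for BIRC3, chr11:102346964-102347213 (plus) for BIRC2, chr11:104968575-104968824 (minus) for CASP4 and chr1:15524791-15525040 (minus) for CASP9. Capitals mark matches, on either strand, to the NF-kappaB consensus in BIRC3, to CCGGAA in BIRC2, to CCAAT in CASP4 and to GGGCGG in CASP9, where some of the 8 matches overlap each other.
BIRC3: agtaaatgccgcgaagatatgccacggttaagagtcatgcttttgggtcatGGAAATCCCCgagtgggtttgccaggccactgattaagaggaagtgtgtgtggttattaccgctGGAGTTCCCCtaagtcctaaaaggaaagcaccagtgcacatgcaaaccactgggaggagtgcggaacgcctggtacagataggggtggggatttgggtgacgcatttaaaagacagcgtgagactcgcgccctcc
BIRC2: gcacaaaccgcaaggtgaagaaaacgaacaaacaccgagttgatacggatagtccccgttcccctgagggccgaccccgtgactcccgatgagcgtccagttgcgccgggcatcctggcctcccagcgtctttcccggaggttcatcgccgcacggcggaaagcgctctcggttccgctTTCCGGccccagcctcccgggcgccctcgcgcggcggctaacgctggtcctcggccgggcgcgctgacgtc
CASP4: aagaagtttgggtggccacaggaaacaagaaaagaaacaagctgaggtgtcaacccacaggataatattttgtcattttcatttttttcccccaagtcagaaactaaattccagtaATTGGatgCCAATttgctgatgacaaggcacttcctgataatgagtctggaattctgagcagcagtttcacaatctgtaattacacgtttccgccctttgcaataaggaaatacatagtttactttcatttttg
CASP9: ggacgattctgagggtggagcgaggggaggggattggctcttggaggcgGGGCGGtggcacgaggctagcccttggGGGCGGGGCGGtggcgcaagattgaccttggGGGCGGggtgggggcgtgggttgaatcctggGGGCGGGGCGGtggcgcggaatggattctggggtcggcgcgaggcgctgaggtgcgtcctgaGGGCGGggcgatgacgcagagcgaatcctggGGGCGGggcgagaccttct

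BIRC3 had 2 matches to the NF-kappaB consensus, GGAAATCCCC at -199 to -190 and GGAGTTCCCC at -135 to -126 from the start, both read on the minus strand. The search covered windows of 300 bases (250 before and 50 after a start), and this consensus was present in 5.91% of the 35116 RefSeq windows of that length. The 8 members had 15 such windows, and the other 14 held no match. CCGGAA was found in 17.2% of all windows, GGGCGG in 45% and CCAAT in 34.6%. These letters were not particular to the gene in which they are marked. GGGCGG also occurred in windows of CASP2, CASP4, CASP8, APAF1, BIRC2 and XIAP. CCAAT also occurred in windows of CASP2, CASP8, CASP9 and APAF1, and CCGGAA in a window of CASP9. TGANTCA, the AP-1 letters, was found in 7.71% of all windows and in 2 member windows, both of CASP8. The printed stretches also differed in base composition. G and C made up 71.6% of the CASP9 stretch, with 25 CpG, and 67.6% of the BIRC2 stretch, with 33 CpG. The BIRC3 stretch had 52.4% G and C with 11 CpG, and the CASP4 stretch 38% with 2 CpG. A match is a description of letters and does not show that a factor is bound.

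Values are FPKM, fragment numbers divided by transcript length and by library size, and so can be compared between genes. All 8 members averaged 1 FPKM or more across the libraries and were tested. A gene is called altered where the adjusted p was at or under 0.05 (limma on log2(FPKM + 1), Benjamini-Hochberg over 13993 genes). In that fit 2336 genes (16.7%) passed, with 11% of tested genes higher after induction and 5.67% lower, and the median change over the tested genes was 0.10 on the log2 scale. Numbers of higher and lower genes were 1543 and 793, against 921 and 1101 with upper-quartile scaling. Of the 8 members, 4 passed: CASP4 and CASP9 were higher, and APAF1 and BIRC3 were lower. Their median change, over all 8, was -0.09. BIRC3 alone also had an absolute log2 change of 1 or more, as did 3.92% of tested genes (1.69% of tested genes with a fall of that size). The groups did not overlap in 5 of the 8 members and in 39.9% of tested genes. Without the third induced library, only CASP4 and APAF1 of the members stayed past the threshold. In bulk RNA, fewer cells that express a gene and less RNA per cell cannot be told apart.

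The libraries were first checked against their labels. HRAS, the gene carried by the construct, had 1175, 1176 and 1140 FPKM in controls and 1439, 1847 and 1473 FPKM in Ras-induced cells, a log2 fold change of 0.44 (limma adjusted p = 0.0431) that missed the threshold when any one library was left out (adjusted p from 0.0598 to 0.156). Transgene and endogenous reads were not separated in these values, and both groups carry the transgene. All 8 fibroblast markers were detected, summing to 5446 to 6333 FPKM in controls and 4019 to 5370 FPKM in Ras-induced libraries, with COL1A2 and THY1 lower. The 6 mitotic markers summed to 1134 to 1169 FPKM and 945 to 1034 FPKM, with PLK1, BUB1 and TOP2A lower. Of the mitotic markers 0 were called without control 1, control 2, induced library 2 or induced library 3, and 1 without control 3 or induced library 1. Of the fibroblast markers 1 was called without control 2 or induced library 1, and 4 without induced library 2. Of 5 endothelial markers only TEK averaged 1 FPKM or more over the 6 libraries, and it fell (limma adjusted p = 0.00126), while PECAM1 was listed at 0. Of 6 leukocyte markers only CD68 averaged that much, and CD3E was listed at 0. Of 5 epithelial markers KRT5, KRT14 and KRT19 averaged that much and none of these was altered by limma (0 at an unadjusted p under 0.05). EPCAM, which was too low to be tested, had 1.05, 0.880 and 1.80 FPKM in controls and 0.272, 0.167 and 0.424 FPKM after induction, without overlap. The endothelial, leukocyte and epithelial sums ran from 14.5 to 16.5, 25.4 to 30.9 and 19.1 to 35.1 FPKM in controls, and from 4.81 to 5.41, 30.6 to 36.1 and 21.3 to 23.6 FPKM in Ras-induced libraries. The part of these marker differences in the results that follow was not tested. Read depth is not given by FPKM values, but steps between low values put the other libraries at 0.849 to 1.17 times the depth of the first control.

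**Figure D1:**
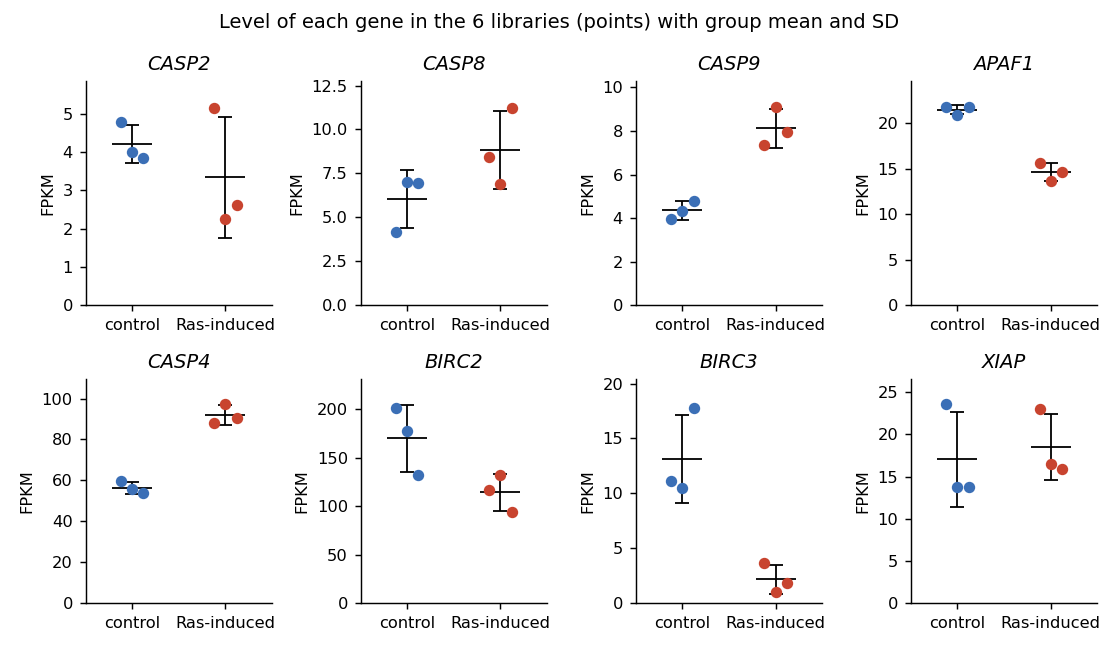
FPKM of the 8 members in each of the 6 libraries, 1 panel per gene on a linear axis from 0, with blue points for the 3 control and red points for the 3 Ras-induced libraries and a black line and bars for the group mean and SD. CASP4 and CASP9 lie wholly above their controls, APAF1, BIRC2 and BIRC3 wholly below, and CASP2, CASP8 and XIAP overlap.

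BIRC3 encodes cIAP2, a TNF-receptor-associated ubiquitin ligase and a known NF-kappaB target, on chromosome 11 at 102188215 to 102210134 (GRCh37, plus strand). It had 11.1, 10.4 and 17.7 FPKM in the control libraries and 3.61, 0.995 and 1.86 FPKM in the Ras-induced libraries. Every Ras-induced value was below every control value, and the second induced library was the lowest of all. The group means were 13.1 ± 4.03 and 2.16 ± 1.33 FPKM (SD, n = 3 each), a ratio of 0.165. The log2 fold change was -2.21 (standard error 0.34, 95% interval -3.01 to -1.41, limma adjusted p = 0.00949), and 0.586% of tested genes had a lower value. A pseudocount of 0.1 gave -2.68. The third control, which had the highest BIRC3, was also the highest control for 8 of the 10 NF-kappaB response genes. Among the members it was highest for 3 of 8, CASP9, APAF1 and BIRC3. The share of all tested genes that were highest in that control was not worked out. Without the third control the log2 fold change of BIRC3 was -1.99 (limma adjusted p = 0.0347). Without the third induced library the adjusted p was 0.0513. A GENCODE long non-coding RNA on the opposite strand shares 126 exon bases with BIRC3, and the library kit does not mark strand.

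BIRC2 encodes cIAP1, the closest relative of cIAP2, and starts 29.7 kb from BIRC3 on the same strand (chromosome 11, 102217942 to 102249401). Control libraries had 201, 177 and 133 FPKM, and Ras-induced libraries 117, 132 and 93.5 FPKM. BIRC2 was the most abundant member in both groups. The lowest control and the highest Ras-induced value were nearly equal, although the groups did not overlap. The mean was 170.3 ± 34.7 FPKM (SD, n = 3) in controls and 114.1 ± 19.5 FPKM (SD, n = 3) after induction, a ratio of 0.670. The log2 fold change of -0.57 (standard error 0.19, 95% interval -1.01 to -0.12) did not pass the threshold (limma adjusted p = 0.0851). It passed with upper-quartile scaling (0.0465) and without the third control (0.0493), so the call depended on the fit.

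The difference between the neighbours was set out within each library. BIRC2 minus BIRC3 on the log2(FPKM + 1) scale was 4.06, 3.96 and 2.83 in controls and 4.67, 6.06 and 5.05 in Ras-induced libraries. All Ras-induced values were above all controls. The means were 3.62 ± 0.68 and 5.26 ± 0.72 (SD, n = 3 each), a difference of 1.64 with an exact two-sided permutation p of 0.1, the smallest that 3 against 3 can give. In linear terms BIRC2 had 18.05, 17.0 and 7.47 times the FPKM of BIRC3 in controls and 32.3, 133 and 50.3 times in Ras-induced libraries, with the highest ratio in the second induced library, where BIRC3 was lowest.

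XIAP, on chromosome X (122993562 to 123047822), is the inhibitor that blocks caspases by binding them directly. It had 23.6, 13.7 and 13.8 FPKM in controls and 23.0, 16.5 and 15.9 FPKM in Ras-induced cells. The groups overlapped, and in each group the library numbered 1 was the highest. The log2 fold change was 0.14 (95% interval -0.43 to 0.70, limma adjusted p = 0.724), and it turned to -0.023 without the first induced library. The 3 inhibitors together had 235.6, 201.5 and 164.2 FPKM in controls and 143.2, 149.8 and 111.3 FPKM in Ras-induced cells, without overlap. BIRC2 made up a mean of 84.7% of that sum in controls and 84.6% after induction, so the sum mostly follows BIRC2.

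CASP9 encodes the initiator that the apoptosome activates, on chromosome 1 at 15817327 to 15853029 (minus strand). It had 3.94, 4.35 and 4.78 FPKM in controls and 7.35, 9.10 and 7.94 FPKM in Ras-induced libraries. Each Ras-induced value was above the highest control. The mean rose from 4.36 ± 0.42 to 8.13 ± 0.89 FPKM (SD, n = 3 each), 1.87 times. On the log2 scale this was 0.77 (standard error 0.12, 95% interval 0.48 to 1.06, limma adjusted p = 0.0103). The adjusted p was 0.0557 without the second control and 0.0519 without the third induced library. CELA2B, an elastase gene on the opposite strand that shares 101 exon bases with CASP9, was at a mean of 0.0137 FPKM in controls and 0.014 FPKM after induction.

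APAF1, the scaffold on which caspase-9 is activated, lies on chromosome 12 at 99039068 to 99129211. It had 21.8, 20.9 and 21.8 FPKM in controls and 15.6, 13.6 and 14.7 FPKM in Ras-induced libraries. The spread within each group was small and the groups were well apart. The mean fell from 21.5 ± 0.50 to 14.7 ± 1.01 FPKM (SD, n = 3 each). The log2 fold change was -0.52 (standard error 0.08, 95% interval -0.72 to -0.33, limma adjusted p = 0.0106), and it stayed past the threshold in each of the 6 fits without 1 library. ANKS1B on the opposite strand shares 750 exon bases with APAF1 and went from 5.83 to 4.78 FPKM. Its share in the APAF1 values was not tested.

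The caspase and its scaffold therefore moved in opposite directions. The ratio of CASP9 to APAF1 FPKM was 0.181, 0.208 and 0.219 in controls and 0.470, 0.668 and 0.541 in Ras-induced libraries. Its lack of overlap follows from the values of the 2 genes and is not a further result. Among all tested genes, 27.1% lay wholly above their controls and 12.8% wholly below, against 2 and 3 of the 8 members.

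CASP4 encodes the human caspase that binds lipopolysaccharide, on chromosome 11 at 104813593 to 104840093 (minus strand). It had 59.5, 55.5 and 53.7 FPKM in controls and 88.0, 97.5 and 90.3 FPKM in Ras-induced cells. The groups were far apart for their spread. The mean rose from 56.3 ± 2.96 to 91.9 ± 4.99 FPKM (SD, n = 3 each), 1.63 times. This gave a log2 fold change of 0.70 (standard error 0.08, 95% interval 0.51 to 0.89, limma adjusted p = 0.00404). It passed the threshold under every alternative without a minimum fold, with adjusted p from 0.00288 to 0.0277. CASP4 was the most abundant of the 4 caspases, with a mean of 79.4% of their summed FPKM in controls and 81.9% after induction.

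CASP8 encodes the initiator recruited to death receptors through FADD, on chromosome 2 at 202098166 to 202226559. It had 4.14, 6.99 and 6.97 FPKM in controls and 8.44, 6.88 and 11.2 FPKM in Ras-induced libraries. The second induced library lay below 2 of the controls. Its log2 fold change was 0.49 (standard error 0.23, 95% interval -0.07 to 1.05, limma adjusted p = 0.194), and it was 0.28 without the first control and 0.32 without the third induced library. A GENCODE long non-coding RNA on the same strand shares 343 exon bases with it, so assignment of reads between them is uncertain.

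CASP2 encodes the PIDDosome initiator, which is known to respond to extra centrosomes after failed division, on chromosome 7 at 142985308 to 143004789. It had 4.79, 4.01 and 3.86 FPKM in controls and 5.16, 2.24 and 2.63 FPKM in Ras-induced libraries. The first induced library was the highest of all 6 and the other two were the lowest. Its log2 fold change was -0.32 (standard error 0.25, 95% interval -0.92 to 0.28, limma adjusted p = 0.414), and it ran from -0.60 without the first induced library to -0.14 without the second.

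The order of the levels also differed between the groups. In controls BIRC2 was above CASP4, which was above APAF1, XIAP and BIRC3, and these neighbours overlapped in that order. CASP8, CASP9 and CASP2 followed, each overlapping the next. In Ras-induced cells BIRC2 and CASP4 overlapped, then came XIAP, APAF1, CASP8 and CASP9, and BIRC3 was the lowest by mean, overlapping CASP2. Set against all tested genes, BIRC2 had a higher mean FPKM than 94.9%, CASP4 than 88.5% and CASP2 than 22.9%. The summed FPKM of the 4 caspases was 72.4, 70.9 and 69.4 in controls and 108.9, 115.7 and 112.1 in Ras-induced cells. The ratio of the inhibitor sum to the caspase sum was 3.25, 2.84 and 2.37 in controls and 1.32, 1.29 and 0.993 after induction. That ratio is mainly BIRC2 over CASP4, and RNA levels do not measure which precursors were active.

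**Figure D2:**
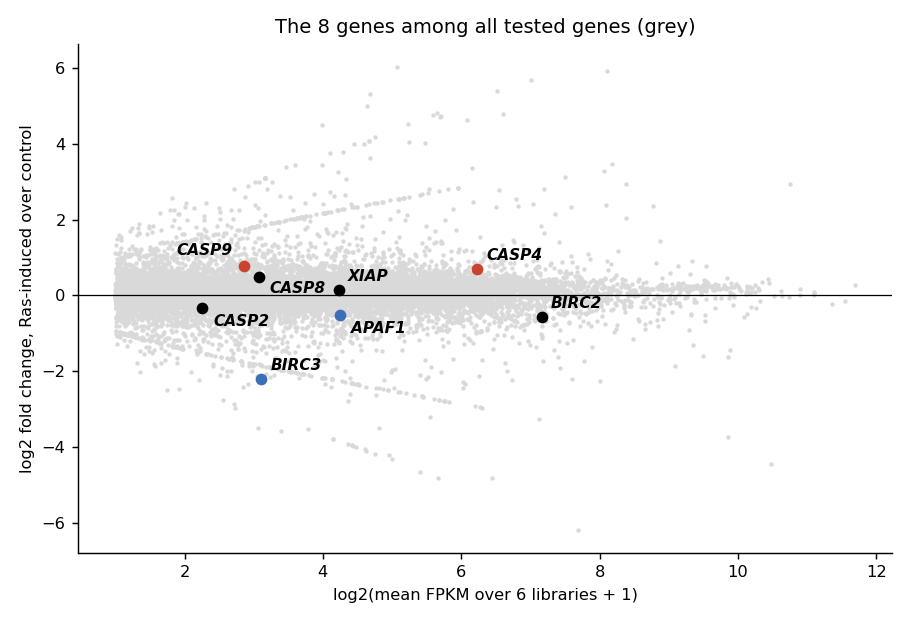
Log2 fold change (vertical axis) against log2 of the mean FPKM plus 1 (horizontal axis) for the 13993 tested genes in grey and the 8 members, red where altered and higher, blue where altered and lower and black where not altered. BIRC3 at -2.21 stands lowest of the members, and CASP9 at 0.77 stands highest.

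The rest of the pathway and the neighbours of BIRC3 were described by 11 lists of 81 genes in all, of which 61 averaged 1 FPKM or more and were tested. Of these 12 genes were altered, 5 higher and 7 lower, and the median change over the 61 was 0.10 on the log2 scale, equal to that of the tested genes as a whole. The share is near the 16.7% of all tested genes. The numbers higher and lower were 4 and 11 with quantile normalization, 4 and 9 with upper-quartile scaling, and 5 and 3 without the mean-variance trend. The number depended on single libraries. It was 4 without the first or the second control, 5 without the first induced library, 7 without the second and 3 without the third.

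Among the other caspases, CASP6, which cleaves lamins, had a log2 fold change of -0.16 (limma adjusted p = 0.204), and CASP1, the inflammatory caspase that matures interleukin-1 beta, had 0.16 (adjusted p = 0.703). CASP1 was called only when the second induced library was left out. CASP5, CASP10, CASP12 and CASP14 averaged under 1 FPKM and were not tested. CASP12 had 0.323, 0.107 and 0.258 FPKM in controls and 1.09, 0.551 and 0.617 FPKM after induction, without overlap.

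Of 5 other BIR genes 3 were tested and BIRC5 alone was altered. BIRC5 encodes survivin, a subunit of the chromosomal passenger complex that is made in mitosis. It had 92.9, 93.4 and 79.7 FPKM in controls and 65.1, 74.6 and 65.9 FPKM after induction, with a log2 fold change of -0.37 (limma adjusted p = 0.0483) that lost the call in 5 of the 6 fits without a library. BIRC6 had 0.16 and NAIP -0.05. Of the 4 IAP antagonists 2 were tested, DIABLO at 0.10 and HTRA2 at 0.25, and none was altered by limma (1 at an unadjusted p under 0.05), while XAF1 and SEPT4 averaged under 1 FPKM. The 2 PIDDosome partners of caspase-2, PIDD at -0.0086 and CRADD at 0.39, were not altered either (1 at an unadjusted p under 0.05).

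In the apoptosome list all 6 genes were tested and HSPA4, an HSP70-family chaperone, was higher (54.0, 64.1 and 63.7 against 83.6, 82.8 and 107.2 FPKM, log2 fold change 0.57, limma adjusted p = 0.0293). It missed the threshold in each fit without a library. HSPA4 also missed it with quantile normalization (limma adjusted p = 0.0616), with upper-quartile scaling (0.0684) and without a filter on low values (0.0715). CYCS, which encodes cytochrome c, had a log2 fold change of 0.14 (adjusted p = 0.424). Of 9 genes for death receptor adaptors and complex II, 8 were tested and MLKL, the pore-forming effector of necroptosis, was higher. It had 2.11, 2.19 and 2.28 FPKM in controls and 6.47, 4.08 and 6.67 FPKM after induction, with a log2 fold change of 1.05 (limma adjusted p = 0.0142), a call held in 2 of 6 fits without a library. RIPK3, the kinase that activates it, averaged under 1 FPKM. The list had 5 of 8 tested genes wholly above their controls, against 27.1% of all tested genes, and FADD, the caspase-8 adaptor, had 0.28 (adjusted p = 0.0835).

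The partners of the cIAPs in non-canonical NF-kappaB signalling had 4 of 6 genes altered, all 4 lower, where 16.7% of all tested genes were altered and 5.67% were altered and lower. This list, like the others, was chosen with earlier results of these data known, so the count is a description only. TRAF1, an adaptor that binds the cIAPs, had 2.97, 2.80 and 3.59 FPKM in controls and 0.975, 0.692 and 1.30 FPKM in Ras-induced cells (log2 fold change -1.06, limma adjusted p = 0.0133). Its induced values were all under the lowest control, and it kept its call in each of the 6 fits without 1 library. NFKB2, the precursor of p52, had -0.55 (adjusted p = 0.0354), RELB, its dimer partner, -0.52 (0.0167), and TRAF2, which recruits the cIAPs, -0.35 (0.0340). TRAF3 had -0.34 (0.0813) and MAP3K14, which encodes NIK, -0.10 (0.714). Without the second control or the third induced library only TRAF1 was called. The third control was the highest control for 4 of the 6 genes, a count for which the share of all tested genes was not worked out.

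Of the 10 NF-kappaB response genes 1 was altered, and it was higher. IER3, an early response gene, had 53.0, 50.7 and 72.2 FPKM in controls and 149.9, 160.0 and 158.3 FPKM in Ras-induced cells (log2 fold change 1.41, limma adjusted p = 0.00283). TNFAIP3, the ubiquitin editor A20, lay wholly below its controls at -0.83 (adjusted p = 0.0542), as did NFKBIE at -0.77 (0.0662), TNIP1 at -0.41 (0.0944) and SOD2 at -0.36 (0.0780). TNFAIP3 and NFKBIE were called, as lower, with quantile normalization, and TNFAIP3 also with a pseudocount of 0.1. The list had 4 of 10 genes wholly below their controls, against 12.8% of all tested genes. Positive values that did not pass were those of IRF1 at 0.54 (0.190), CCL2 at 0.42 (0.688), NFKBIA at 0.41 (0.476) and ICAM1 at 0.10 (0.937), and TNFAIP2 had -0.32 (0.217). ICAM1 had 16.0, 8.96 and 62.3 FPKM in the controls and 25.2, 12.9 and 35.3 FPKM after induction. CCL2 had 10.4, 11.5 and 61.0 FPKM in controls and 36.98, 18.3 and 28.1 FPKM after induction. The third control was far above the other controls for both.

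Among 10 partners of the inflammatory caspases 5 were tested and CARD16 was higher, with 16.3, 15.6 and 12.0 FPKM in controls and 26.4, 22.1 and 23.0 FPKM after induction (log2 fold change 0.67, limma adjusted p = 0.0208), a call held in 1 of 6 fits without a library. CARD16 is a card-only relative of CASP1 with which it shares sequence, so reads may have been split between them. CARD8, an inflammasome sensor that activates caspase-1, lay wholly below its controls at -0.33 (adjusted p = 0.0564), and it was called with quantile normalization, with upper-quartile scaling and with a filter at a mean of 5 FPKM. GSDMD, the pore-forming protein that caspase-4 cleaves, had -0.11 (adjusted p = 0.457). Of the 9 caspase substrates PARP1, a DNA repair enzyme cut in apoptosis, was lower, with 50.4, 55.7 and 66.1 FPKM against 38.0, 39.4 and 45.4 FPKM (log2 fold change -0.47, limma adjusted p = 0.0452), and it missed the threshold in each fit without a library.

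**Figure D3:**
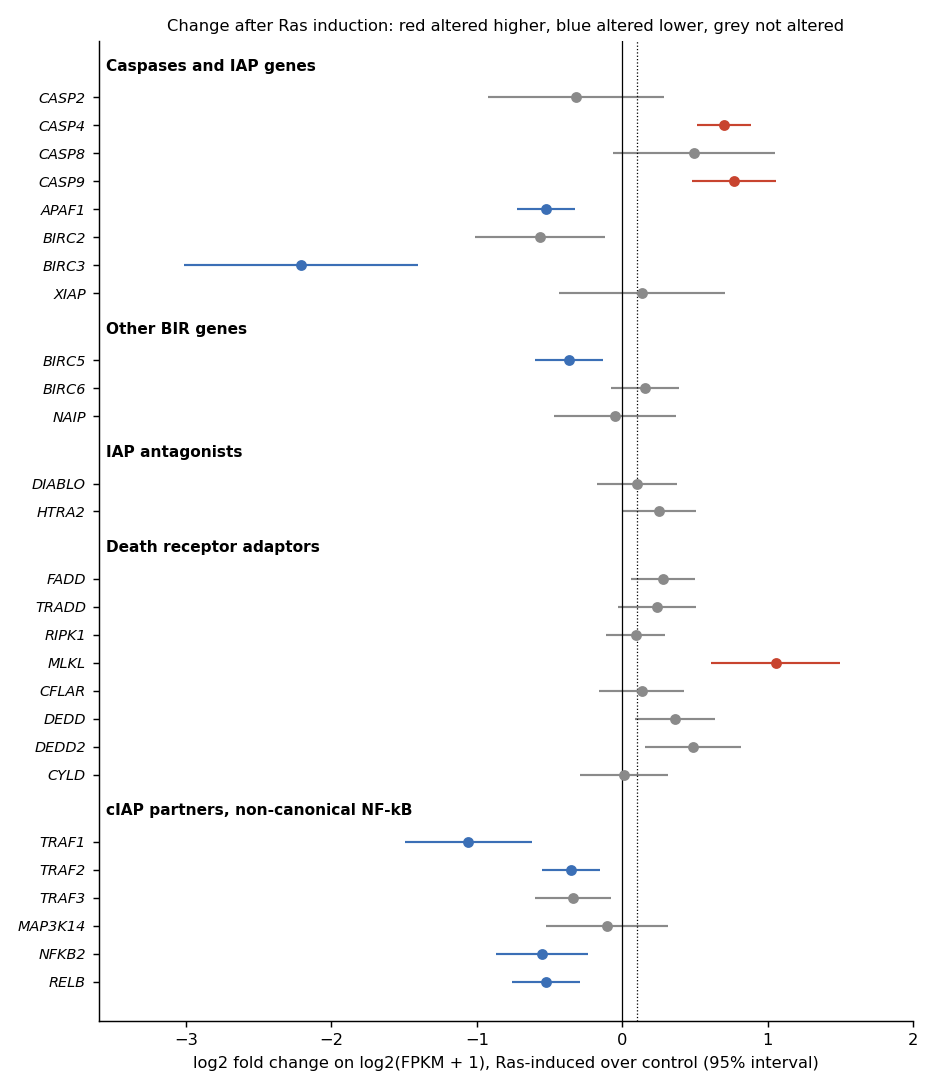
Log2 fold change with 95% interval for the members and the tested genes of 4 further lists (other BIR genes, IAP antagonists, death receptor adaptors and cIAP partners), in red where altered and higher, blue where altered and lower, and grey where not altered. The dotted line is the median of all tested genes, 0.10, and all 6 cIAP partners lie to its left.

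The genes around BIRC2 and BIRC3 on chromosome 11 moved in both directions. Of 12 neighbours listed 6 were tested. TMEM123, 152.9 kb from the BIRC3 start and encoding a surface protein, had 187.3, 164.9 and 132.7 FPKM in controls and 122.8, 98.0 and 98.2 FPKM after induction (log2 fold change -0.59, limma adjusted p = 0.0436), a call held in 1 of 6 fits without a library. MMP1, an interstitial collagenase 480.7 kb away, went from 408, 373 and 401 FPKM to 2630, 3139 and 3348 FPKM (log2 fold change 2.94, limma adjusted p = 0.00012). YAP1, the Hippo pathway co-activator, had -0.037 (adjusted p = 0.847), C11orf70 0.61 (0.0826), MMP10 0.59 (0.156) and MMP3 0.56 (0.641).

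**Figure D4:**
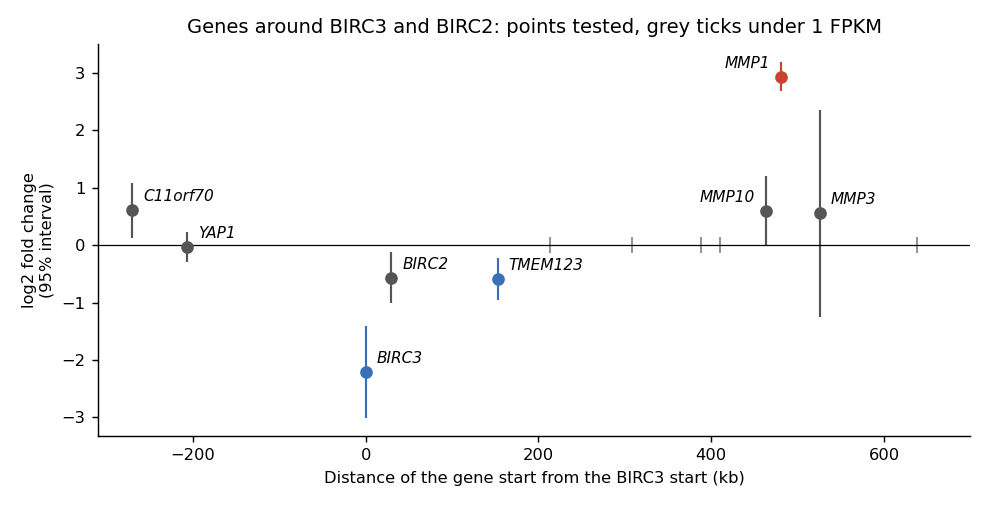
Log2 fold change with 95% interval against distance from the BIRC3 start in kb for the tested genes around BIRC2 and BIRC3, red where altered and higher, blue where altered and lower, dark grey where not altered, and grey ticks for listed genes averaging under 1 FPKM. MMP12, also under 1 FPKM, had no matched position and is not drawn. BIRC3 at -2.21 and MMP1 at 2.94 are the extremes, with BIRC2 at -0.57 and TMEM123 at -0.59 between them.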

How the data were processed

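RNA was profiled in 6 libraries, 3 per group. The authors trimmed reads with Trim Galore 0.3.0, aligned them to hg19 with TopHat2 using Ensembl build 73 junctions, and deposited FPKM values per gene and library made with Cufflinks. They also deposited a Cuffdiff comparison (group FPKM, log2 fold change, test statistic, p and q values), which was not used. Table columns give a group and a number but not the sample, so they serve only as replicates of the group. Left out were 18 unnamed columns, 120 rows with more than 6 values and a second header line. No counts were used here, so absolute depth is unknown.

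Genes averaging 1 FPKM or more were tested with limma 3.58.1 in R 4.3.3 (lmFit, eBayes with trend) on log2(FPKM + 1), two-sided, with Benjamini-Hochberg adjustment over 13993 genes. This scale understates the change of genes near 1 FPKM. The methods state that the experiment was independently repeated, and p-values measure the spread between these libraries. The members and gene lists were chosen with earlier results of these data known. Named genes are the members, HRAS, up to 4 altered genes per list with the largest change, the 5 genes most like BIRC3 and its tested neighbours; other list genes were named after their values were seen, and some are not reported here. GRCh37 coordinates and overlaps come from GENCODE 44 lifted to that build. Promoter sequences come from RefSeq. Tables were made with pandas 2.3.3 and numpy 2.4.6 in Python 3.11.15, exact tests with scipy 1.17.1, and figures with matplotlib 3.10.9.

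The fit was tested on simulated data for induced against uninduced libraries, with 13993 genes of which 200 were changed: 14%, 72%, 92% and 94% of those changed by 0.5, 1, 2 and 3 on the log2 scale were called, with 11 unchanged genes called. The simulated noise was normal and independent between genes. The changed share was far smaller than the 16.7% called in the data, so these percentages do not give the sensitivity in the data. Alternatives were a pseudocount of 0.1, no filter, a mean of at least 5 FPKM, quantile and upper-quartile scaling, no trend, a replicate block and each library left out. A further requirement of a log2 change of 1 or more in size was added after seeing the data.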

Additional observations from a re-analysis of the deposited data

How the results depend on the processing

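Altered genes numbered 2336, of which 1543 were higher and 793 lower. The split became 1044 and 1109 with quantile scaling and 921 and 1101 with upper-quartile scaling, which moved the median log2 fold change of all genes down by 0.0975. The number was 1518 without a filter on low values, 548 where a log2 change of 1 or more in size was also required, and 860 to 1872 with single libraries left out (860 without the induced library numbered 3, 876 and 978 without controls 2 and 1, 1042 and 1443 without induced libraries 1 and 2). Altered members numbered 4, against 1 (BIRC3) with that minimum change and 2 to 5 with single libraries left out. Altered pathway genes numbered 12, against 6 without the filter, 4 with the minimum change, and 3 to 9 with single libraries left out. Over single libraries left out, XIAP ran from -0.023 to 0.38, YAP1 from -0.12 to 0.052 and MMP3 from -0.33 to 1.02. Of 103 alternative values of the members, 96 kept their direction and side of the threshold, 3 lost the call (CASP9 without the second control, and both CASP9 and BIRC3 when the third induced library was left out), 3 gained it (BIRC2) and 1 turned sign. The causes were not tested.

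The deviations of libraries with the same number had correlations of -0.00266, 0.0434 and 0.0481. Those of libraries with different numbers ran from -0.068 to 0.0311. Values this small do not settle whether same-numbered libraries came from the same repeat, and the labels do not say. With a replicate block 2310 genes were altered, 1940 of them also without it, as were 5 members, adding BIRC2 (adjusted p = 0.0265), and 12 pathway genes. With the block HRAS had an adjusted p of 0.0526 and the BIRC2 minus BIRC3 difference an exact p of 0.25, the smallest that 3 pairs can give. Without read counts, genes near 1 FPKM, BIRC3 after induction included, have a precision that is unknown.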

Other observations

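The tested genes whose pattern over the 6 libraries was most like that of BIRC3, by root mean square difference of centred log2(FPKM + 1) values, were NAV2 (0.306), COL15A1 (0.313), WISP1 (0.345), NAV2-AS2 (0.351) and RP11-302M6.4 (0.365). NAV2, a neuron navigator gene, went from a mean of 28.1 to 4.47 FPKM, COL15A1, a collagen gene, from 47.7 to 9.58 FPKM, and WISP1, a secreted CCN-family gene, from 11.5 to 2.39 FPKM. NAV2-AS2 went from 8.78 to 1.49 FPKM. By its name it is antisense to NAV2, the libraries do not mark strand, and reads shared between the pair were not tested. RP11-302M6.4 went from 3.11 FPKM to under 0.01 FPKM in each Ras-induced library.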
